A study of Mus musculus with 21 samples.

Results

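Autophagy and lysosome genes were followed in mouse embryonic stem cells treated with inhibitors of RNA polymerase I, which makes the precursor of most ribosomal RNA. The group was defined by a list of 36 gene symbols, and all 36 were found among the 20900 rows of the deposited expression table. They fall into initiation kinases and their partners (Ulk1, Ulk2, Atg13, Rb1cc1), the lipid kinase complex (Becn1, Atg14), membrane supply (Atg9a, Atg2a, Atg2b, Wipi1, Wipi2), the conjugation enzymes (Atg3, Atg4a to Atg4d, Atg5, Atg7, Atg10, Atg12, Atg16l1), the ATG8 proteins (Map1lc3a, Map1lc3b, Gabarap, Gabarapl1, Gabarapl2), the receptor Sqstm1, the transcription factors Tfeb and Tfe3, and lysosomal proteins (Lamp1, Lamp2, Ctsb, Ctsd, Ctsl, Atp6v1h, Mcoln1).

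The cells were E14, an established embryonic stem cell line of mouse strain 129, grown in serum with the cytokine LIF, and every library is from that 1 line. Both inhibitors, BMH-21 and CX-5461, are small molecules and were given at 1 µM for 2, 4 or 8 h, after which polyadenylated RNA was sequenced. With 1 shared untreated control at 0 h, there were 7 groups of 3 libraries, 21 in all. The treated cells also had a change of medium, and no untreated group was taken at 2, 4 or 8 h, so inhibitor, medium change and time in culture cannot be told apart in a comparison with control. The labels number the replicates without naming separate cultures, so the p-values measure the spread between these libraries, which may be technical.

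Autophagy is the delivery of cytoplasm to the lysosome inside a double membrane. The ULK kinase complex starts it, the Beclin 1 lipid kinase complex and the WIPI proteins mark the growing membrane, ATG9 and ATG2 proteins supply its lipid, and a ubiquitin-like conjugation chain attaches ATG8 proteins to it, where receptors such as p62 (Sqstm1) bind. TFEB and TFE3 are transcription factors that bind the E-box letters CACGTG, in particular within the longer letters TCACGTGA, before many lysosome and autophagy genes, and their activity is set largely by phosphorylation and entry into the nucleus. The values below are messenger RNA levels and hold no measure of that activity or of autophagic flux.

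Upstream sequence was therefore read for the members from the RefSeq promoter windows of build GRCm38.p6, each running from 250 bases before to 50 after a start site. A window was held for 29 members, and Ctsb, Becn1, Atp6v1h, Atg12, Map1lc3a, Atg16l1 and Rb1cc1 had none. The letters CACGTG, which read the same on both strands, stood in the window of 8 of the 29 members (27.6%), namely Atg3, Atg5, Atg7, Atg14, Lamp1, Ctsd, Ctsl and Mcoln1, against 8.09% of the 27025 genes with a window. TCACGTGA, which overlaps the shorter letters by construction, stood in 3 members (10.3%), Ctsd, Mcoln1 and Atg3, against 1.12% of genes. TGACTCA, the letters of the AP-1 motif on either strand, stood in 0 of the 29 and in 5.95% of genes. Stretches before the RefSeq start of 5 members are shown, 3 with and 2 without the E-box. Ulk1 and Wipi1 were picked because they are among the members that rose most. Each stretch lies outside all exons of the GENCODE M21 annotation, reads 5′ to 3′ on the gene's own strand, and has each CACGTG in capitals.
Lamp1 (chr8:13159041-13159160, plus strand): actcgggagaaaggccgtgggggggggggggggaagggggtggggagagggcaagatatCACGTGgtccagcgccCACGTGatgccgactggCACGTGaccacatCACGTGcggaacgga
Mcoln1 (chr8:3500337-3500456, plus strand): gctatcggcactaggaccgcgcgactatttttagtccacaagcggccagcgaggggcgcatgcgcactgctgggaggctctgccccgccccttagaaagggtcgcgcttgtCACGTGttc
Atg3 (chr16:45158707-45158784, plus strand): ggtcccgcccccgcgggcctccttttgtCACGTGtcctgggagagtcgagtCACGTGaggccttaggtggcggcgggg
Ulk1 (chr5:110810098-110810217, minus strand): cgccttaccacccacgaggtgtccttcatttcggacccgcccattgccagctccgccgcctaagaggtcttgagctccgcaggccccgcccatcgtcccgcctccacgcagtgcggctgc
Wipi1 (chr11:109611433-109611552, minus strand): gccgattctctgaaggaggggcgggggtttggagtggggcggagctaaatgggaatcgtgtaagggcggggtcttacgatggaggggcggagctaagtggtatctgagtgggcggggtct
Lamp1 held 4 copies within 120 bases. Mcoln1 held 1 here and another, the one within TCACGTGA, inside its annotated first exon, and Atg3 held 2. The Mcoln1 and Atg3 stretches end where GENCODE starts the gene, which lies upstream of the RefSeq start. The copies of Ctsd started 98 and 245 bases before its RefSeq start, the nearer one inside an exon that GENCODE draws, and are not shown. The Wipi1 stretch lies next to its RefSeq start but inside the gene as GENCODE draws it, whose 5′ end is at 109611967 on chromosome 11. A match of letters is a description of the sequence and not a binding site.

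Libraries held 46604397 to 62812641 reads. Each deposited value is a log2 CPM, the reads of a gene plus 0.5 over the library size after the authors' scaling, and the whole reads behind it could be recovered. The authors' scaling factors ran from 0.832 to 1.38. Factors computed as the median ratio over genes with reads in every library ran only from 0.941 to 1.11. Comparisons were therefore made on the deposited values and again under another 2 scalings, with each library centred on its median and with the median-ratio factors. Below, "called" means a limma adjusted p (Benjamini-Hochberg over the 14666 genes tested, two-sided) under 0.05 on the deposited values, and "under all 3 scalings" means called in the same direction each way. All 36 members passed the filter on low values, and the smallest count of any member in any library was 57 reads. All 6 pluripotency markers were expressed in every library, with a summed level of 12.20 to 12.41 (log2) in control, 11.07 to 11.14 in BMH-21 at 8 h and 11.97 to 12.07 in CX-5461 at 8 h. Of the 6 markers of macrophages, a cell type rich in lysosomes, Tyrobp had 0 to 3, Adgre1 0 to 6, Csf1r 1 to 15, Ptprc 1 to 39 and Itgam 30 to 316 reads per library, and 1 marker was above a log2 of 0 in control and 2 at 4 and 8 h. The summed level of 5.06 to 5.13 in control, 5.01 to 5.29 in BMH-21 and 5.62 to 5.72 in CX-5461 at 8 h came mainly from Cd68, which other cells also express. Of the 6 trophoblast markers 4 were above a log2 of 0 in control and 5 at 8 h, and their summed level was 6.52 to 6.67 in control, 6.99 to 7.24 in BMH-21 and 7.16 to 7.36 in CX-5461 at 8 h. The 6 fibroblast markers (4 above 0, Postn at 0 to 14 and Col3a1 at 1 to 19 reads) summed to 5.07 to 5.24, 5.40 to 5.65 and 5.64, and the 6 primitive endoderm markers to 3.96 to 4.25, 3.40 to 3.71 and 4.18 to 4.22 in the same 3 groups. The part of these markers in the results was not tested. In such bulk RNA, fewer cells of a type and less RNA per cell cannot be told apart.

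Per kilobase of annotated exon, the control level of the members spanned from a log2 of 7.29 for Lamp1 to -0.64 for Ulk2. The highest after Lamp1 were Ctsd (6.69), Sqstm1 (6.50) and Gabarapl2 (6.21). Among the ATG8 genes the order of control levels per kilobase was Gabarapl2, Gabarap (5.27), Map1lc3a (4.59), Map1lc3b (3.99) and Gabarapl1 (3.45). Tfe3 (4.20) stood above Tfeb (3.11), and Ulk1 (5.26) far above Ulk2. Wipi1 was next to lowest, at -0.28. Exon length is that of all annotated transcripts together, so the order is approximate.

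Across the whole group, members moved in both directions, and with BMH-21 more of them were called at each later time. After BMH-21, 2 members were called higher and 2 lower at 2 h (the same 2 and 2 under all 3 scalings), where 8.48% and 11.2% of all genes tested were called (8.43% and 11% under all 3). At 4 h 6 were higher and 9 lower, or 6 and 8 under all 3 scalings, against 22.1% and 44.9% of all genes (22% and 38.8%). At 8 h 8 were higher and 17 lower, or 8 and 9 under all 3 scalings, against 24.5% and 56.9% of all genes (24.5% and 43.3%). As deposited and under all 3 scalings, members were not called lower more often than genes at large at any time of BMH-21. The balance of directions depended on the scaling: at 2, 4 and 8 h, 13, 16 and 16 members were called higher and 6, 9 and 14 lower after centring, and 13, 16 and 19 higher and 6, 8 and 9 lower with median-ratio factors.

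After CX-5461, 2 members were called higher and 9 lower at 2 h (2 and 4 under all 3 scalings), against 7.45% and 20.5% of all genes (7.44% and 12.8%). At 4 h 4 were higher and 18 lower (4 and 12), against 19.8% and 51.2% (19.7% and 36.5%). At 8 h 11 were higher and 2 lower (6 and 2), against 35.1% and 14.3% (29.3% and 14.2%), but 6 were higher and 15 lower after centring, and 12 and 12 with median-ratio factors. At 2 and 4 h centring gave 6 and 9 higher and 8 and 16 lower, and median-ratio factors gave 8 and 10 higher and 4 and 12 lower. The median change of the 36 members at 8 h was -0.20 for BMH-21 and 0.15 for CX-5461 as deposited, beside -0.40 and 0.11 for all genes tested. Centred on library medians it was 0.01 and -0.07, beside -0.19 and -0.11 for all genes, so the sign of the group's median depends on the scaling and the group is better described member by member. The 2 h counts rest on single libraries. The count of 11 after CX-5461 became 2 without control replicate 1, 1 without control replicate 2, 2 without CX-5461 replicate 2 and 3 without CX-5461 replicate 3, and the count of 4 after BMH-21 became 2 without BMH-21 replicate 1, 2 or 3 or control replicate 1.

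**Figure D1:**
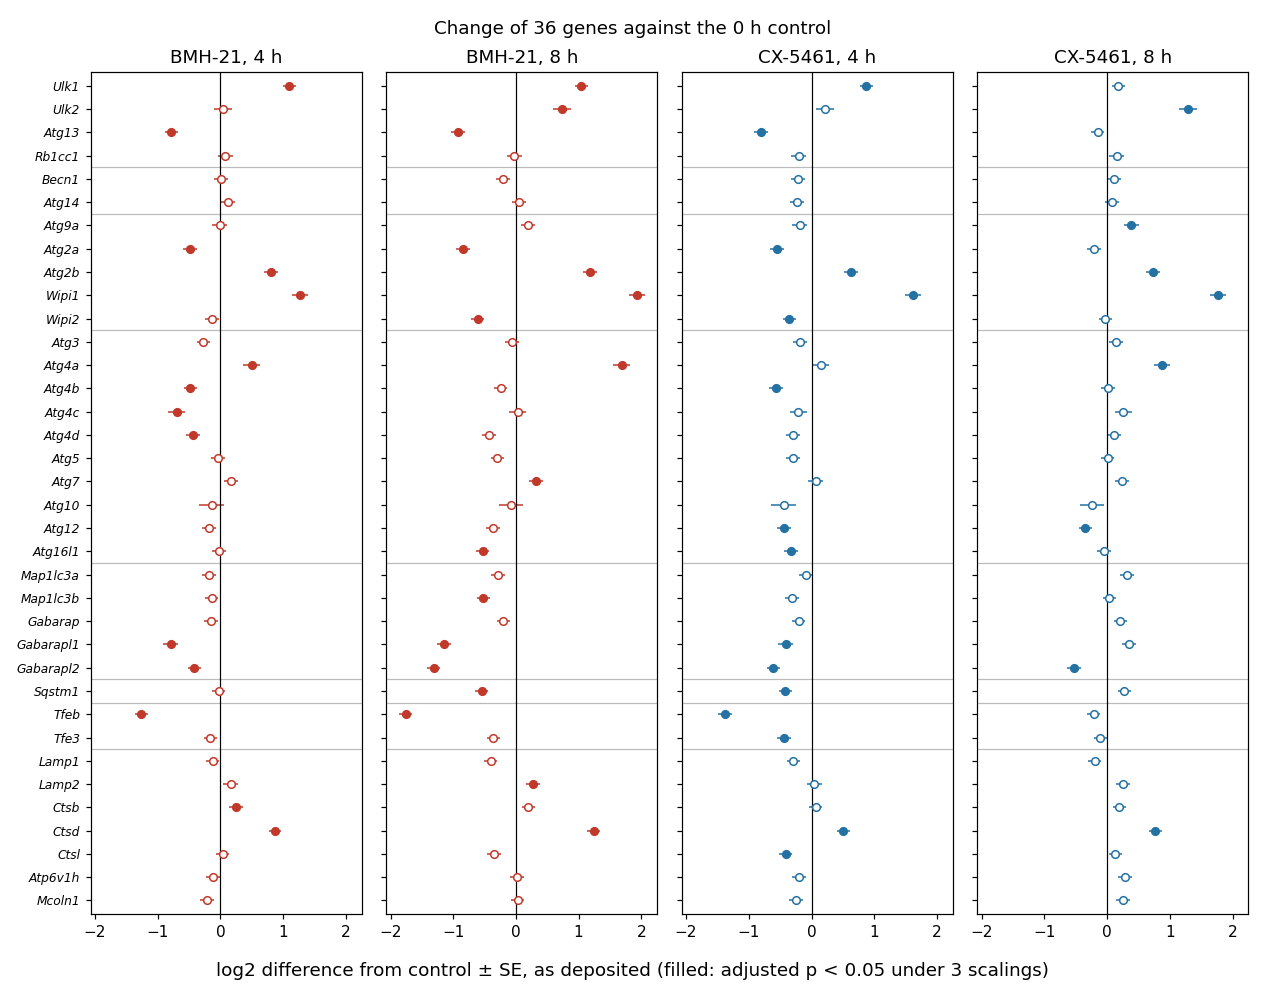
Log2 difference from the 0 h control of each of the 36 members (horizontal axis, as deposited, with its standard error) at 4 and 8 h of each inhibitor, ordered by role with grey lines between the roles. Filled points were called in the same direction under all 3 scalings. Wipi1, Atg2b and Ctsd lie to the right in all 4 panels, and Tfeb lies far to the left in every panel but CX-5461 at 8 h.

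Among the initiation genes, the 2 kinase genes rose at different times. Ulk1, the main kinase that starts autophagy, read 7.86, 7.98 and 8.03 (log2 CPM) in the 3 control libraries. Under BMH-21 it read 8.14, 8.29 and 8.42 at 2 h, 8.95, 8.98 and 9.23 at 4 h, and 8.75, 9.06 and 9.18 at 8 h. Under CX-5461 it read 8.19, 8.21 and 8.37 at 2 h, 8.75, 8.80 and 8.92 at 4 h, and 8.08, 8.14 and 8.18 at 8 h. Every treated library was above every control library, but the CX-5461 libraries had come most of the way back by 8 h. BMH-21 gave a difference from control of 1.10 ± 0.10 (SE, adjusted p = 4.83e-18) at 4 h and of 1.04 ± 0.10 (4.34e-17) at 8 h. CX-5461 gave 0.87 ± 0.10 (6.79e-13) at 4 h and 0.18 ± 0.10 at 8 h, the latter not called (adjusted p = 0.15). The 2 h rises of 0.33 (adjusted p = 0.0135) and 0.30 (adjusted p = 0.0231) were called, but not in every fit with a library left out. Leaving out BMH-21 replicate 2 turned the BMH-21 rise into 0.26 (adjusted p = 0.101), and leaving out control replicate 3 into 0.28 (0.0671). The CX-5461 one was 0.31 (0.0574) without control replicate 1, 0.25 (0.0704) without control replicate 3 and 0.24 (0.0729) without CX-5461 replicate 1.

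Ulk2, the related kinase, was a low-count gene, with 137 to 485 reads per library. It read 1.78, 2.00 and 2.04 in control and 1.62 to 2.37 in the treated libraries at 2 and 4 h, which overlapped control. The 8 h libraries were all above control, at 2.44, 2.72 and 2.84 for BMH-21, and for CX-5461 at 3.14, 3.22 and 3.32. The rises were 0.73 ± 0.14 (adjusted p = 2.22e-06) and 1.29 ± 0.14 (3.7e-14). The larger value with CX-5461 was called as deposited (BMH-21 minus CX-5461, -0.56 ± 0.14) and not under all 3 scalings. The kinase's regulatory subunit gene Atg13 fell by 0.78 at 4 h and 0.92 at 8 h of BMH-21. CX-5461 gave falls of 0.32 at 2 h and 0.81 at 4 h, and each of these falls was called under all 3 scalings. At 8 h of CX-5461 Atg13 stood at -0.15 ± 0.11 (adjusted p = 0.251) as deposited. It was called lower there after centring and with median-ratio factors. Rb1cc1, the scaffold FIP200, was called as deposited in none of the 6 comparisons with control, where its differences ran from -0.20 to 0.16. After centring and with median-ratio factors it was called higher at 8 h of BMH-21. Becn1 and Atg14 of the lipid kinase complex were called as deposited in none of the 6 either, with differences of -0.23 to 0.12. After centring and with median-ratio factors both were called higher at 2 and 4 h of BMH-21. At 8 h both were called higher with BMH-21 under median-ratio factors and lower with CX-5461 after centring.

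In the membrane supply group the WIPI and ATG2 pairs split, with 1 gene of each pair called higher and the other lower. Wipi1, a phosphoinositide-binding protein of the growing membrane, rose most of all 36 members in the comparisons with control. It read 1.72, 1.87 and 1.99 in control (149 reads in the lowest library, 1043 in the highest of the 21). BMH-21 libraries read 2.02, 2.19 and 2.27 at 2 h, 3.02, 3.06 and 3.31 at 4 h, and 3.59, 3.86 and 3.92 at 8 h. CX-5461 libraries read 2.18, 2.19 and 2.59 at 2 h, 3.40, 3.44 and 3.60 at 4 h, and 3.50, 3.65 and 3.73 at 8 h. All 18 treated libraries were above all 3 control libraries, and the level climbed between 2 and 4 h with both inhibitors. The rise at 8 h was 1.93 ± 0.13 (adjusted p = 1.31e-28) with BMH-21 and 1.77 ± 0.13 (3.11e-25) with CX-5461, and those at 4 h were 1.27 and 1.62, the CX-5461 value higher by 0.35 (adjusted p = 0.0452). At 2 h it was called only with CX-5461, at 0.46, which was 0.39 (adjusted p = 0.0512) without control replicate 2 and 0.32 (0.0532) without CX-5461 replicate 1. Wipi2, which recruits the conjugation machinery, fell by 0.61 ± 0.11 after 8 h of BMH-21 and by 0.35 ± 0.11 after 4 h of CX-5461, under all 3 scalings. At 8 h of CX-5461 it differed by -0.03 from control as deposited, and was called lower after centring and with median-ratio factors.

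Atg2b, 1 of 2 lipid transfer proteins, read 5.85, 6.06 and 6.07 in control. It read 6.67, 6.77 and 6.98 at 4 h and 6.87, 7.29 and 7.36 at 8 h of BMH-21. CX-5461 libraries read 6.48, 6.61 and 6.78 at 4 h and 6.68, 6.75 and 6.77 at 8 h. Libraries of 4 and 8 h did not overlap control, whereas those of 2 h (5.75 to 6.21) did. The mean was higher than control by 0.81 and 1.18 for BMH-21 at these times, and by 0.63 and 0.74 for CX-5461, with an SE of 0.11 each and adjusted p values up to 3.14e-07. Its paralog Atg2a went the other way, falling by 0.48 and 0.85 at 4 and 8 h of BMH-21 and by 0.33 and 0.55 at 2 and 4 h of CX-5461 under all 3 scalings. Atg9a, the scramblase of the vesicles that seed the membrane, was called as deposited only at 8 h of CX-5461, at 0.39 ± 0.12. After centring and with median-ratio factors it was also called higher at 4 and 8 h of BMH-21.

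**Figure D2:**
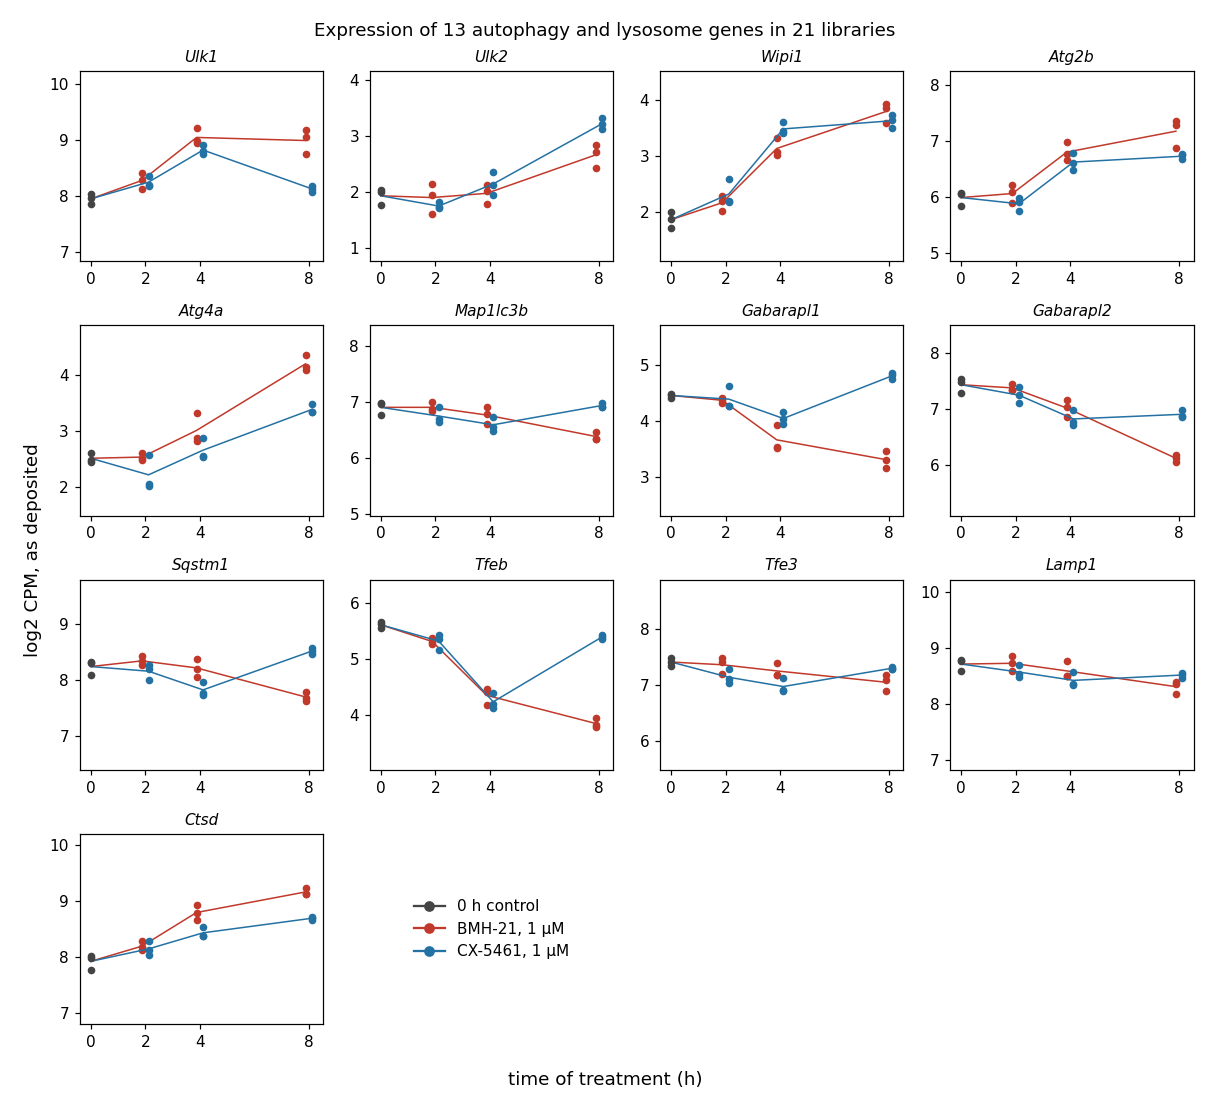
Deposited log2 CPM (vertical axis, the same span of units in every panel) of 13 members against time of treatment in hours. Each point is 1 library, black for the 0 h control, red for BMH-21 and blue for CX-5461, and lines join group means. Tfeb, Gabarapl1 and Sqstm1 part between the inhibitors at 8 h, and Wipi1 and Ctsd rise with both.

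Of the 10 conjugation genes, Atg4a stood apart. The 4 ATG4 proteases trim ATG8 proteins before conjugation and release them afterwards. Atg4a read 2.44, 2.49 and 2.61 in control. With BMH-21 it read 2.83, 2.88 and 3.32 at 4 h and 4.10, 4.14 and 4.36 at 8 h. With CX-5461 it read 2.54, 2.56 and 2.88 at 4 h, overlapping control, and 3.34, 3.34 and 3.48 at 8 h. Its rise came mainly between 4 and 8 h, by 1.19 ± 0.13 for BMH-21, and for CX-5461 by 0.73 ± 0.13. Against control it was 1.69 ± 0.13 (adjusted p = 1.24e-23) and 0.87 ± 0.13 (6.36e-09) at 8 h. GENCODE M21 lists a pseudogene copy, Atg4a-ps, and how reads shared with it were counted is not given in the sources used here, so the Atg4a level is uncertain.

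The other ATG4 genes were lower where they were called. Atg4c fell by 0.68 ± 0.13 and 0.70 ± 0.13 at 2 and 4 h of BMH-21 and by 0.42 ± 0.13 at 2 h of CX-5461, and was back at 0.03 and 0.26 from control at 8 h. Atg4b fell by 0.48 and 0.56 at 4 h of BMH-21 and CX-5461 under all 3 scalings, and Atg4d by 0.44 at 4 h of BMH-21. The conjugating enzymes moved little. Atg7, the activating enzyme, rose by 0.32 ± 0.12 at 8 h of BMH-21, and Atg16l1, which places the conjugation complex on the membrane, fell by 0.53 ± 0.11 there and by 0.33 at 4 h of CX-5461. Atg12, the ubiquitin-like partner of Atg5, fell by 0.29, 0.43 and 0.35 at 2, 4 and 8 h of CX-5461 under all 3 scalings, and its fall of 0.37 at 8 h of BMH-21 was not called under all of them. Atg3, Atg5 and Atg10 were called under all 3 scalings in no comparison with control.

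Of the 5 ATG8 genes, 0 were called at 2 h of BMH-21 and 2, Gabarapl1 and Gabarapl2, were lower at 4 h. At 8 h 4 were called lower as deposited, where 56.9% of all genes were, and 3, Map1lc3b, Gabarapl1 and Gabarapl2, under all 3 scalings, where 43.3% were. Gabarapl1 read 4.41, 4.47 and 4.49 in control. With BMH-21 it read 4.33, 4.37 and 4.41 at 2 h, 3.51, 3.54 and 3.94 at 4 h, and 3.16, 3.30 and 3.47 at 8 h. With CX-5461 it read 4.26, 4.27 and 4.63 at 2 h, 3.94, 4.04 and 4.16 at 4 h, and 4.75, 4.82 and 4.86 at 8 h. It was thus below control in both 4 h groups, and at 8 h further below with BMH-21 and above every control library with CX-5461. The falls were 0.79 and 1.14 with BMH-21 (adjusted p = 1.61e-09 and 1.25e-16, SE 0.12), and CX-5461 gave a fall of 0.41 at 4 h and a rise of 0.35 at 8 h. That rise was called as deposited (adjusted p = 0.00767) and with median-ratio factors, and was 0.14 (0.0697) after centring.

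Gabarapl2, which has the highest control level per kilobase of the 5, read 7.28, 7.47 and 7.53 in control. With BMH-21 it read 6.84, 7.03 and 7.15 at 4 h and 6.05, 6.12 and 6.17 at 8 h. Those of CX-5461 read 6.70, 6.76 and 6.98 at 4 h and 6.85, 6.88 and 6.97 at 8 h. These 4 groups lay below control with no overlap. Its fall at 8 h was 1.31 ± 0.11 (adjusted p = 1.04e-22) with BMH-21 and 0.53 ± 0.11 (9.57e-06) with CX-5461. As deposited and under all 3 scalings it was the only ATG8 gene called lower at 8 h of CX-5461.

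Map1lc3b, which encodes the LC3B protein used as a marker of autophagosomes, moved less. It read 6.76, 6.96 and 6.98 in control, 6.33, 6.34 and 6.46 at 8 h of BMH-21 and 6.90, 6.91 and 6.98 at 8 h of CX-5461. The other treated libraries lay from 6.48 upward and overlapped control at 2 h and, for BMH-21, at 4 h. It fell by 0.52 ± 0.11 at 8 h of BMH-21 (adjusted p = 5.4e-06), a call lost after quantile normalization, where the difference was -0.04. The fall of 0.31 at 4 h of CX-5461 was -0.06 with median-ratio factors and 0.02 after quantile normalization, and it missed the threshold (-0.26, adjusted p = 0.0518) without CX-5461 replicate 1. At 8 h of CX-5461 Map1lc3b was not called as deposited or with median-ratio factors, and was called lower after centring. Gabarap was called in no comparison with control as deposited, and with median-ratio factors it was called higher at 8 h of BMH-21 (0.16). Map1lc3a was at -0.29 with BMH-21 and 0.32 with CX-5461 at 8 h, neither called under all 3 scalings. ATG8 genes resemble each other in sequence, and the treatment of reads that fit more than 1 of them is not given in the sources used here.

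Sqstm1 encodes p62, a receptor that links ubiquitinated cargo to ATG8 proteins and is itself consumed by autophagy. It read 8.09, 8.31 and 8.33 in control. With BMH-21 it read 8.27, 8.34 and 8.43 at 2 h, 8.06, 8.21 and 8.39 at 4 h, and 7.62, 7.69 and 7.79 at 8 h. With CX-5461 it read 8.01, 8.20 and 8.27 at 2 h, 7.74, 7.76 and 7.98 at 4 h, and 8.47, 8.52 and 8.57 at 8 h. At 2 and 4 h of BMH-21 Sqstm1 was not called as deposited. It was called higher there after centring (0.18 and 0.13) and with median-ratio factors (0.18 and 0.16). The low groups were BMH-21 at 8 h and CX-5461 at 4 h, and CX-5461 at 8 h was above control. The falls were 0.54 ± 0.10 (adjusted p = 1.16e-06) and 0.42 ± 0.10 (0.000218), both called under all 3 scalings, but after quantile normalization they were 0.06 and -0.07 and not called. The 8 h value of CX-5461 was 0.28 (adjusted p = 0.0189) as deposited, 0.06 (0.21) after centring, 0.20 (0.128) without control replicate 3 and 0.25 (0.0758) without CX-5461 replicate 1. With median-ratio factors it was 0.16 and called.

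Tfeb, the transcription factor named as a master regulator of lysosome genes, fell more than any other member in the comparisons with control. It read 5.55, 5.64 and 5.66 in control. With BMH-21 it read 5.27, 5.31 and 5.38 at 2 h, 4.19, 4.41 and 4.47 at 4 h, and 3.79, 3.82 and 3.96 at 8 h. With CX-5461 it read 5.17, 5.37 and 5.44 at 2 h, 4.12, 4.20 and 4.40 at 4 h, and 5.36, 5.40 and 5.44 at 8 h. All treated libraries were below all control libraries, deepest at 8 h for BMH-21 and at 4 h for CX-5461. The falls were 1.26 ± 0.11 at 4 h (adjusted p = 5.12e-20) and 1.76 ± 0.11 at 8 h (8.48e-31) with BMH-21, and 1.37 ± 0.11 at 4 h (2.24e-22) with CX-5461. At 8 h of CX-5461 the difference was -0.22 ± 0.11 (adjusted p = 0.096), not called as deposited. Each of the other scalings called Tfeb lower in that group.

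At 2 h Tfeb was already called lower, by 0.30 with BMH-21 (adjusted p = 0.0422) and 0.29 with CX-5461 (0.038), but these calls hang on single libraries. The BMH-21 call was lost without BMH-21 replicate 1 (-0.27, 0.143), 2 (-0.30, 0.0804) or 3 (-0.33, 0.0703) and without control replicate 1 (-0.27, 0.153) or 2 (-0.29, 0.125). The CX-5461 call was lost after centring (-0.14, 0.0672), with median-ratio factors (-0.11, 0.179), and without control replicate 1 (-0.27, 0.137) or 2 (-0.28, 0.116) or CX-5461 replicate 2 (-0.21, 0.239) or 3 (-0.31, 0.0758). Tfe3, the related factor, moved far less: it read 7.34, 7.40 and 7.47 in control, 6.89, 7.08 and 7.17 at 8 h of BMH-21 and 6.88, 6.91 and 7.11 at 4 h of CX-5461. Its fall of 0.44 ± 0.11 at 4 h of CX-5461 (adjusted p = 0.000139) was called under all 3 scalings. That of 0.36 at 8 h of BMH-21 was -0.0037 with median-ratio factors and 0.17 after quantile normalization. At 8 h of CX-5461 Tfe3 read 7.28, 7.29 and 7.32, a difference of -0.11 that was not called as deposited. Tfe3 was called lower there after centring and with median-ratio factors. Its 2 h call with CX-5461 (-0.27, adjusted p = 0.0415) was lost with median-ratio factors (-0.09, 0.0743), without control replicate 1 (-0.24, 0.167) or 2 (-0.27, 0.107), and without CX-5461 replicate 2 (-0.25, 0.131) or 3 (-0.22, 0.203).

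Among the 7 lysosomal genes, Ctsd was the one that rose with both inhibitors. It encodes cathepsin D, the main aspartic protease of the lysosome. It read 7.77, 7.98 and 8.02 in control. BMH-21 libraries read 8.12, 8.17 and 8.28 at 2 h, 8.66, 8.78 and 8.93 at 4 h, and 9.12, 9.13 and 9.22 at 8 h. CX-5461 libraries read 8.03, 8.12 and 8.28 at 2 h, 8.37, 8.38 and 8.53 at 4 h, and 8.65, 8.70 and 8.72 at 8 h. Every treated library was above every control library, and the group means stepped up at each time. The rises were 0.87 ± 0.10 (adjusted p = 1.84e-13) and 1.24 ± 0.10 (2.85e-22) at 4 and 8 h of BMH-21. For CX-5461 they were 0.51 ± 0.10 (5.35e-06) and 0.77 ± 0.10 (5.57e-11). At 2 h it was called as deposited with BMH-21 alone (0.27, adjusted p = 0.0441), a call lost without BMH-21 replicate 1 (0.31, 0.054), 2 (0.23, 0.154) or 3 (0.28, 0.0945) and without control replicate 1 (0.30, 0.0668) or 3 (0.19, 0.195). At 2 h of CX-5461 Ctsd was at 0.22 as deposited, and was called higher after centring and with median-ratio factors. An annotated gene model that is not in the table, Gm49369, shares exon sequence with Ctsd on the same strand.

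The other lysosomal genes differed from control by less, between -0.41 and 0.29. Lamp1, the abundant membrane glycoprotein with 4 E-box copies at its start, read 8.58, 8.77 and 8.78 in control, 8.18, 8.36 and 8.38 at 8 h of BMH-21 and 8.47, 8.52 and 8.56 at 8 h of CX-5461. Its direction was not stable in 2 of these comparisons. The fall of 0.40 ± 0.10 at 8 h of BMH-21 was -0.05 with median-ratio factors and 0.31 after quantile normalization. The fall of 0.29 at 4 h of CX-5461 was -0.04 and 0.10. At 8 h of CX-5461 Lamp1 was at -0.20 and not called as deposited, and was called lower after centring and with median-ratio factors. Lamp2, its relative that also serves chaperone-mediated autophagy, was called higher by 0.27 ± 0.11 at 8 h of BMH-21 under all 3 scalings, although its libraries as deposited overlapped control. Of the cysteine cathepsins, Ctsb rose by 0.25 ± 0.11 at 4 h of BMH-21 and Ctsl fell by 0.41 ± 0.11 at 4 h of CX-5461, each under all 3 scalings. Atp6v1h, a proton pump subunit, and Mcoln1, the lysosomal calcium channel, were called under all 3 scalings in no comparison with control.

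Members with the E-box letters were set beside those without. At 8 h of BMH-21, 2 of the 8 members with CACGTG in their window were higher and 0 lower under all 3 scalings, and 6 and 8 of the 21 without it, beside 24.5% and 43.3% of all genes. The change of the 8 ran from -0.40 (Lamp1) to 1.24 (Ctsd), with a median of -0.02, and that of the 21 from -1.76 to 1.93 with a median of -0.25. At 8 h of CX-5461, 1 of the 8 was higher and 0 lower, and 5 and 1 of the 21, beside 29.3% and 14.2%. Of the members whose stretches are printed above, Lamp1 was at -0.40 (-0.05 with median-ratio factors), Mcoln1 at 0.03 (0.38), Atg3 at -0.07 (0.29), Ulk1 at 1.04 and Wipi1 at 1.93 after 8 h of BMH-21. Ulk1 and Wipi1 were printed because they rose, so these values do not compare members with and without the letters. Ctsd, which has the letters and is not printed, was at 1.24.

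The 2 inhibitors were compared directly at equal dose and time. At 2 h 0 of the 36 members were called (3.99% of all genes in either direction), with 1 called without BMH-21 replicate 1 or without CX-5461 replicate 1. At 4 h 6 were higher with BMH-21 and 3 lower, the same numbers under all 3 scalings, against 9.35% and 8.49% of all genes (9.23% and 8.46%), and 19 and 4 after centring or 15 and 6 with median-ratio factors. Sqstm1 was higher by 0.39 and Ctsl by 0.45, and Wipi1, Gabarapl1 and Atg4c were lower by 0.35, 0.38 and 0.48. The 4 h count of 9 became 5 without BMH-21 replicate 1, CX-5461 replicate 1 or CX-5461 replicate 3.

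At 8 h the inhibitors had parted. As deposited 4 members were higher with BMH-21 and 20 lower, against 12% and 67.2% of all genes. That balance reversed to 22 higher and 9 lower after centring, and 22 and 7 with median-ratio factors. Under all 3 scalings 4 were higher and 7 lower, against 12% and 36.4%. The 4 were Ulk1 (0.86 ± 0.10), Atg4a (0.81 ± 0.13), Ctsd (0.47 ± 0.10) and Atg2b (0.45 ± 0.11). The 7 were Tfeb (-1.54 ± 0.11), Gabarapl1 (-1.50 ± 0.12), Sqstm1 (-0.82 ± 0.10), Gabarapl2 (-0.79 ± 0.11), Atg13 (-0.77 ± 0.11), Atg2a (-0.64 ± 0.11) and Wipi2 (-0.59 ± 0.11). The adjusted p was 1.47e-25 for Tfeb and 4.78e-23 for Gabarapl1. Wipi1 did not pass the test as deposited (0.16 ± 0.13, adjusted p = 0.238).

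**Figure D3:**
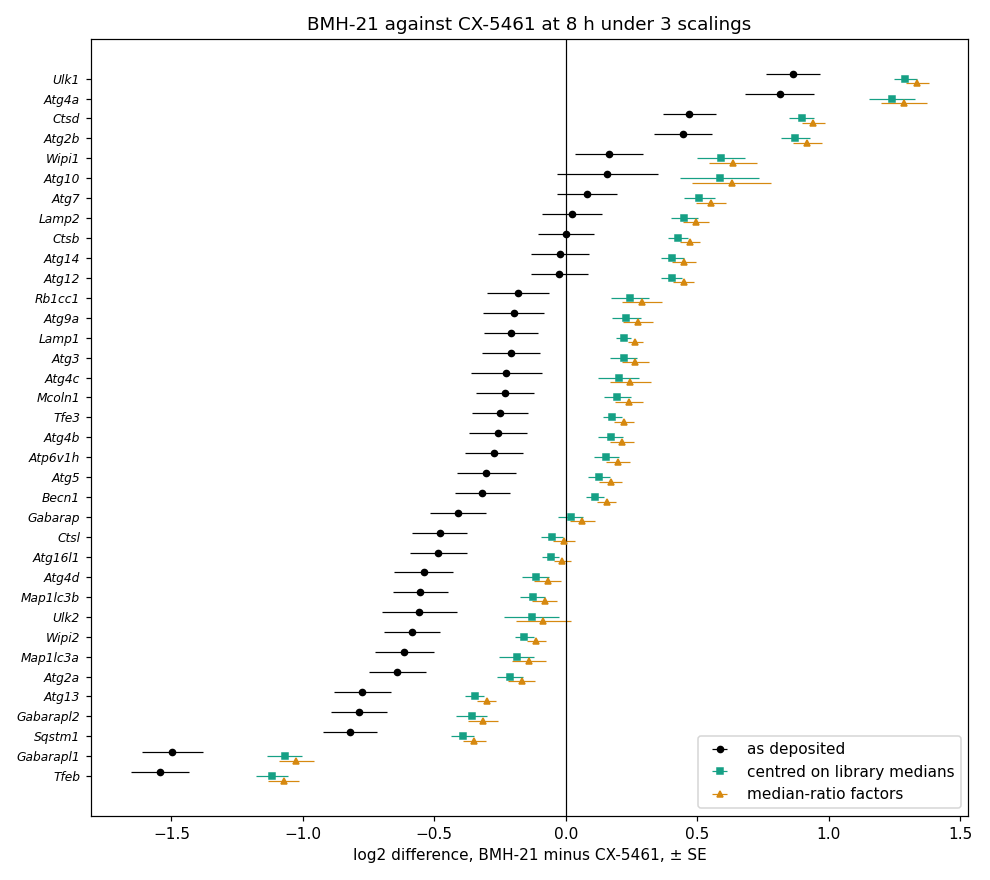
BMH-21 minus CX-5461 at 8 h for each of the 36 members (horizontal axis, log2 difference with its standard error), as deposited (black circles), centred on library medians (green squares) and with median-ratio factors (orange triangles). Rescaling moves every member to the right by a similar amount, so members in the middle change sign, while Tfeb and Gabarapl1 stay below 0 and Ulk1, Atg4a, Ctsd and Atg2b above it.

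The change from 4 to 8 h within each inhibitor showed where the courses turned. With BMH-21, 6 members were higher at 8 h than at 4 h and 10 lower under all 3 scalings, against 18.5% and 32.5% of all genes. Of the 6, Atg4a, Wipi1, Atg2b and Ctsd were already above control at 4 h, Ulk2 was at 0.04 from control, and Atg4c was below control, and the largest falls were of Gabarapl2 (-0.90 ± 0.11), Sqstm1 (-0.52), Atg16l1 (-0.51) and Tfeb (-0.50). With CX-5461, 11 members rose and 1 fell under all 3 scalings, against 25.8% and 4.85% of all genes, while 11 were higher and 11 lower after centring alone. Tfeb rose by 1.16 ± 0.11 (adjusted p = 5.19e-17), Ulk2 by 1.08, Gabarapl1 by 0.76, Atg4a by 0.73, Sqstm1 by 0.69 and Atg13 by 0.66, and Ulk1 fell by 0.69 ± 0.10 (7.62e-09). Tfeb, Gabarapl1, Sqstm1, Atg13 and Ulk1 were among the members that turned at 4 h of CX-5461. Their direction between 4 and 8 h was opposite to that between control and 4 h, and both steps were called under all 3 scalings. These 2 steps share the 4 h libraries.

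Beyond the 36 members, 135 other genes of the same processes were sorted into 9 lists, and 128 of them passed the filter on low values. At 8 h of BMH-21, 25 were higher and 47 lower under all 3 scalings, and at 8 h of CX-5461 34 were higher and 10 lower, shares to be read against the same background (24.5% and 43.3%, and 29.3% and 14.2%). As for the members, the median change as deposited was negative with BMH-21 (-0.35) and positive with CX-5461 (0.15), and under centring it was -0.13 and -0.07. Given next are the largest rise and fall in each list among genes called under all 3 scalings whose libraries did not overlap control.

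Of the 11 partners of initiation and nucleation, Uvrag, a Beclin 1 partner, rose by 1.43 (BMH-21) and 0.88 (CX-5461) at 8 h, and Tmem41b, a lipid scramblase of the endoplasmic reticulum, fell by 1.05 and 0.26. Of the 12 autophagy receptors 8 fell and 1 rose with BMH-21 under all 3 scalings, where 43.3% and 24.5% of all genes did. With CX-5461 1 fell and 3 rose, where 14.2% and 29.3% did. Tex264, a receptor for endoplasmic reticulum, fell by 1.41 with BMH-21 and was at -0.08 with CX-5461, whereas Ccpg1, of the same kind, rose by 1.08 and 0.80. The mitochondrial receptor Fundc1 fell by 0.92 (BMH-21) and 0.36 (CX-5461). Of the 13 genes of autophagosome fusion, Vamp8, which joins autophagosome to lysosome, fell by 0.75 with BMH-21 and rose by 0.44 with CX-5461.

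Among the 4 other transcription factors linked to autophagy, Foxo3 rose by 1.85 (BMH-21) and 1.34 (CX-5461) at 8 h, and Mitf, of the same family as Tfeb, fell by 0.54 and 0.29. Of the 23 genes of nutrient signalling at the lysosome, Flcn, the folliculin gene, rose by 1.01 and 0.51. Its group mean was 5.96 in control, 7.26 and 6.97 at 4 and 8 h of BMH-21, and for CX-5461 7.04 and 6.47. The Rag GTPase genes Rragb and Rragd fell: Rragb by 2.14 (BMH-21) and 0.73 (CX-5461), and Rragd by 1.19 and 0.73. Depdc5, a negative regulator of that pathway, rose by 0.60 (BMH-21) and 0.56 (CX-5461). Of the 6 p53-linked genes, Ddit4, an inhibitor of mTOR signalling, rose by 3.36 and 2.96, from a group mean of 4.79 in control to 8.15 and 7.74, and Prkab1 fell by 0.51 with BMH-21.

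Of 30 lysosomal hydrolases tested, 9 were higher and 11 lower with BMH-21 under all 3 scalings, where 24.5% and 43.3% of all genes were. With CX-5461 11 were higher and 3 lower, where 29.3% and 14.2% were. Man2b1, the lysosomal alpha-mannosidase, rose by 3.57 and 2.33: its group mean was 6.01 in control, 6.93, 8.82 and 9.57 at 2, 4 and 8 h of BMH-21, and for CX-5461 6.76, 8.25 and 8.34. No member rose as far as Man2b1. Ctsz, the cathepsin Z gene, fell by 1.39 with BMH-21, and Ctsc by 1.12 (BMH-21) and 0.39 (CX-5461). In the 14 membrane, cofactor and sorting genes, the mannose 6-phosphate receptor gene Igf2r rose by 1.24 and 0.72, while M6pr, the other receptor of that kind, fell by 1.06 (BMH-21) and 0.35 (CX-5461), and Gnptab, whose enzyme makes their ligand, fell by 1.08 with BMH-21. In the 15 proton pump subunits BMH-21 had 3 higher and 5 lower, CX-5461 4 higher and 0 lower, beside the same shares of all genes. Atp6v1a rose by 0.41 and 0.39, and Atp6v1b2 fell by 0.89 with BMH-21.

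**Figure D4:**
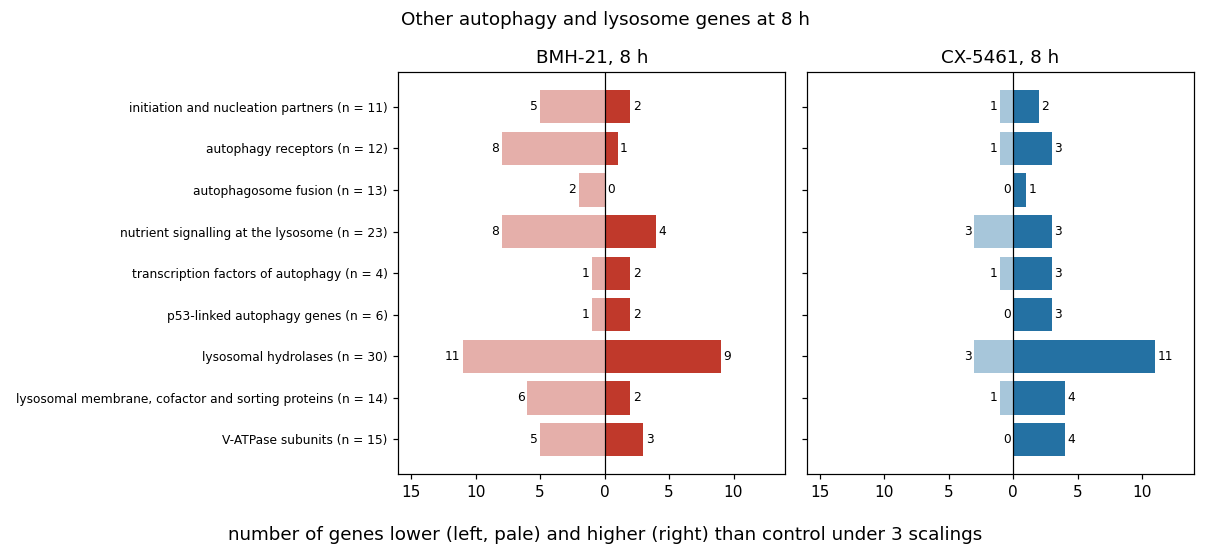
Number of genes in each of 9 lists of other autophagy and lysosome genes that were lower (pale bars, to the left) or higher (solid bars, to the right) than control at 8 h under all 3 scalings, for BMH-21 (red) and CX-5461 (blue), with the count at the end of each bar and the number tested beside the list name. With BMH-21 8 of 12 receptors were lower, and with CX-5461 1 was, where 43.3% and 14.2% of all genes tested were.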

How the data were processed

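Polyadenylated RNA of E14 cells was sequenced from libraries made with a directional kit, per the labels' protocols. The submitters' processing notes name genome build mm10, Trim Galore 0.5.0, TopHat2 2.1.1, R 4.0.5, DESeq2 1.30.1, edgeR 3.32.1 and limma 3.46.0. The counting step, its strand setting and its annotation are not given in the sources used here. The authors deposited log2 values for 20900 genes in 21 libraries. Each is a log2 CPM with an offset of 0.5 reads and a scaled library size, and whole reads were recovered within 1.79e-08. Replicates of a group differed by more than sampling noise in every pair (chi-square per degree of freedom 2.58 to 26.0), so none was counted as a repeat.

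Genes with a log2 above 0 in at least 3 libraries were tested (14666, with 6234 left out) with limma 3.58.1 in R 4.3.3: a means model over all 21 libraries, a prior variance that follows the mean level, and p-values adjusted by Benjamini-Hochberg. There were 14 residual degrees of freedom and 112 prior ones. An SE comes from this fit. Values are given for members called under all 3 scalings without overlap and with a log2 change of at least 1 against control, for Ulk1, Sqstm1, Map1lc3b, Tfeb, Tfe3, Lamp1 and Ctsd in any case, and for the largest rise and fall of each other list at 8 h among genes called under all 3 scalings without overlap. Other genes were named after their values were seen. Members and lists were chosen with earlier results of these data known. The fit was also run on simulated reads in which few genes changed and library sizes were known, so that run does not test the choice of scaling. Exons of 9 members, among them Ctsb, Atg4d, Atg2b, Map1lc3b, Gabarapl1 and Lamp1, overlap an opposite-strand gene of the table. Without a known strand setting reads of the pair cannot be told apart. The mean log2 of the other gene was 6.60 for Ctsb (Fdft1), 5.83 for Map1lc3b (Zcchc14), 5.59 for Atg4d (Kri1) and -5.38 for Gabarapl1 (1700101I11Rik). Alternatives were other scalings, filters, offsets, voom weights, fits with fewer groups, a replicate block and leaving out each library. Figures were drawn with matplotlib.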

Additional observations from a re-analysis of the deposited data

Results flagged for a closer look

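Some genes moved in opposite directions in 2 groups of the same design, and the difference itself was tested with limma (Benjamini-Hochberg over 14666 genes). Gabarapl1, an ATG8 gene, was 1.14 below control at 8 h of BMH-21 and 0.35 above it at 8 h of CX-5461, a difference between the inhibitors of -1.50 (adjusted p = 4.78e-23), with all 3 libraries of each group on its side of control. Within CX-5461 it was 0.41 below control at 4 h, so that 8 h exceeded 4 h by 0.763 (adjusted p = 1.33e-08). Sqstm1, the p62 receptor gene, showed the same order: BMH-21 minus CX-5461 at 8 h was -0.820 (adjusted p = 6.14e-12) and 8 h exceeded 4 h of CX-5461 by 0.694 (6.46e-09). Both genes kept these calls under all 3 scalings, whereas their rise over control at 8 h of CX-5461, at 0.35 and 0.28, was 0.14 and 0.06 after centring and not called. With median-ratio factors both rises were called. Mcoln1, the lysosomal calcium channel gene, differed by 0.498 between 8 and 4 h of CX-5461 (adjusted p = 6.22e-05), from -0.24 at 4 h to 0.26 at 8 h as deposited, and from -0.08 to 0.04 after centring. Map1lc3a, another ATG8 gene, differed between the inhibitors at 8 h by -0.614 as deposited (adjusted p = 5.47e-07), with -0.29 for BMH-21 and 0.32 for CX-5461, but this was not called under all 3 scalings.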

How the results depend on the processing

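Counts of members called moved with the scaling of the libraries, and the cause was not tested. Centred on library medians, with median-ratio factors, with quantile normalization and with voom weights, in that order, the 4 calls at 2 h of BMH-21 became 19, 19, 18 and 18, the 15 at 4 h of BMH-21 became 25, 24, 26 and 24, and the 13 at 8 h of CX-5461 became 21, 24, 24 and 23. In the same order BMH-21 against CX-5461 gave 7, 6, 6 and 7 in place of 0 at 2 h and 23, 21, 17 and 21 in place of 9 at 4 h, and 8 against 4 h of BMH-21 gave 27, 28, 29 and 28 in place of 17. With only the groups compared in the fit, CX-5461 at 8 h gave 22 and BMH-21 against CX-5461 at 4 h gave 5. Leaving out 1 library at a time gave counts of 2 to 3, 14 to 15 and 22 to 26 at 2, 4 and 8 h of BMH-21, of 1 to 11, 17 to 28 and 10 to 15 for CX-5461, of 0 to 1, 5 to 12 and 19 to 25 between the inhibitors, and of 16 to 18 and 20 to 28 for 8 against 4 h of BMH-21 and CX-5461. Same-numbered replicates did not deviate together (correlations of -0.251 to 0.0933, and 4 of 21 libraries closest to their own number), so the numbers were not taken as pairs. A replicate block gave 2 calls in place of 4 at 2 h of BMH-21. The block together with centring gave 18 and 24 at 2 and 4 h of BMH-21, 21 at 8 h of CX-5461, 7 and 23 between the inhibitors at 2 and 4 h, and 27 for 8 against 4 h of BMH-21. Of 47 called changes of the 13 members given in full, 31 kept direction and call under every alternative. Those that changed direction did so under quantile normalization: Sqstm1 (0.0606), Tfe3 (0.17) and Lamp1 (0.31) at 8 h of BMH-21, and Map1lc3b (0.0185) and Lamp1 (0.10) at 4 h of CX-5461. The cause was not tested.

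Low counts came with larger standard errors: Atg10 (57 to 165 reads per library) had an SE of 0.193 and Ulk2 (137 to 485) of 0.143 against control, and Ctsd 0.10.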

Other observations

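The 12 other autophagy receptor genes, chosen for comment after their values were seen, followed the course of Sqstm1 and Gabarapl1 in part. At 4 h, 8 of the 12 were lower and 1 higher with BMH-21 under all 3 scalings, and 9 were lower and 1 higher with CX-5461, where 38.8% and 36.5% of all genes tested were lower and 22% and 19.7% higher. At 8 h BMH-21 again had 8 lower and 1 higher, where 43.3% and 24.5% of all genes were, and CX-5461 had 1 lower and 3 higher, where 14.2% and 29.3% were. Optn, a receptor for mitochondria and bacteria, stood at -0.89 and -1.37 at 4 and 8 h of BMH-21, and at -1.34 and 0.15 at 4 and 8 h of CX-5461. Bnip3, a receptor on mitochondria, stood at -1.28 and -0.67, and at -1.34 and 0.23. Ccpg1 was the gene that was higher in all 4 groups (0.54, 1.08, 0.38 and 0.80).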
